A study of Mus musculus with 12 samples.

Results

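The genes described here are 7 components of the Hedgehog signalling pathway (Shh, Ptch1, Hhip, Smo, Gli1, Gli2 and Gli3) and Noto, a homeobox gene of the node and notochord. They were chosen by name, so that 8 of the 55487 genes in the table are members. The choice was made with earlier results of the same libraries in view, among them falls of Shh and Gli1 at day 4. The members' values and calls are therefore given as a description, without p-values.

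The 12 bulk RNA-seq libraries came from mouse epiblast stem cells (EpiSCs), pluripotent cells that resemble the epiblast just before gastrulation. They had been converted from embryonic stem cells, carried a doxycycline-inducible FLAG-tagged Mixl1 transgene in every group, and were grown as floating embryoid bodies in serum-containing medium. Mixl1 is a paired-type homeobox transcription factor of the primitive streak. The groups, each of 3 libraries, were D1Dox_d2 (doxycycline at 1 µg/mL, collected on day 2), NoDox_d2 (no doxycycline, day 2), D3Dox_d4 (doxycycline at 1 µg/mL, day 4) and NoDox_d4 (no doxycycline, day 4). The labels do not say what the number after the D stands for, how many clones were used or whether replicates were separate cultures, and the spread behind each p-value is that of the libraries and may be technical. No group without the transgene received doxycycline, so effects of the drug and of Mixl1 cannot be told apart.

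Hedgehog signalling starts with a secreted, lipid-modified ligand. Without ligand the receptor Ptch1 holds the membrane protein Smo inactive at the primary cilium, and Gli3 is largely processed into a repressor. When Shh binds Ptch1, Smo is released and the Gli proteins activate targets that include Gli1, Ptch1 and Hhip, which thereby report and restrain the signal. In the embryo Shh is made by the node, notochord, floor plate and gut endoderm, and Noto is required in the mouse for formation of the posterior notochord and of the cilia of the node.

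RefSeq promoter sequences of the build GRCm38.p6 were found for 6 of the 8 members: Gli2, Gli3, Ptch1, Hhip, Smo and Noto. The 250 bases before the annotated start are shown for 3 of them, because Hhip and Ptch1 are targets of the same pathway that lay in opposite directions at day 4, and Noto has the promoter with the fewest CpG dinucleotides. They are written 5′ to 3′ on the gene's strand, and capitals mark CpG dinucleotides. The Hhip window lies at chr8:80058009-80058258 (minus strand), that of Ptch1 at chr13:63565736-63565985 (minus strand) and that of Noto at chr6:85423636-85423885 (plus strand).
Hhip: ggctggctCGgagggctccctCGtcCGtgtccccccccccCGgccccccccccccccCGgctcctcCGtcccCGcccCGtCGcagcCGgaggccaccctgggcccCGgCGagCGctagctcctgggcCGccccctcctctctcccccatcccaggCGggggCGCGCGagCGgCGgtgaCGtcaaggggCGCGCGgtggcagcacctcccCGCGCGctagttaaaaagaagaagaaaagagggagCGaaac
Ptch1: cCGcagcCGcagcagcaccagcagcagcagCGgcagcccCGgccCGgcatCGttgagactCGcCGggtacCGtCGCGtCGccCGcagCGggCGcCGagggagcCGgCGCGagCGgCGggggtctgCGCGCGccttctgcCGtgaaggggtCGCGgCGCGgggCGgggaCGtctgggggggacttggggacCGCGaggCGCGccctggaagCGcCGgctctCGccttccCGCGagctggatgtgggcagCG
Noto: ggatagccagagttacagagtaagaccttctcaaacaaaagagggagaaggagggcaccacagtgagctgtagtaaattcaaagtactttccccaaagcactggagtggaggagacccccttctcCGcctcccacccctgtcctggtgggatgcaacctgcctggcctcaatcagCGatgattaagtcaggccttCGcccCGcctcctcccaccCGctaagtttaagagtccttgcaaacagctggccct
The Ptch1 start used by RefSeq lies 7863 bases downstream of the outermost start of the gene in the annotation of the count table. The Hhip window held 28 CpG dinucleotides and 76.0% G or C, the Ptch1 window 41 and 78.4%, and the Noto window 5 and 54.8%. Gli2 had 22, Gli3 had 34 and Smo had 15 CpG dinucleotides in the same window. The median over 32851 promoters was 6 CpG dinucleotides and 52.4% G or C, so that the 5 Hedgehog promoters were richer in CpG than the median and the Noto promoter was close to it. A search of 300 bases, which added the 50 bases after the start, covered both strands. It found the Gli motif GACCACCCA, also with 1 changed letter, in none of the 6 member promoters, nor the palindromic paired-type homeodomain motif of the P3 class or TAATTA, a general homeodomain motif whose letters can overlap it. The share of all promoters that held a match was 0.253% for the exact Gli motif, 6.74% with 1 changed letter, 0.487% for the paired-type motif and 5.29% for TAATTA. The looser motifs were added after the exact ones had been seen to give no match in the members.

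Libraries held 24100487 to 28020036 counts, and 3 counts, the level below which a value was treated as not detected, correspond to 0.106 to 0.130 CPM (fragment counts scaled to edgeR's normalised library sizes). Log2 fold changes are fitted by edgeR and given ± SE, with the group named first over the other, and a gene was called risen or fallen at a Benjamini-Hochberg adjusted p under 0.05 over all 18109 genes tested. The targeted gene, Mixl1, stood at 392, 362 and 387 CPM in D1Dox_d2 against 91.0, 0.593 and 1.15 CPM in NoDox_d2, and at 478, 418 and 450 CPM in D3Dox_d4 against 1.62, 1.83 and 1.11 CPM in NoDox_d4. Counts do not separate the transgene from the endogenous gene. The library labelled NoDox_d2 replicate 1 held Mixl1 although its label gives no doxycycline, and it also held T, the brachyury gene of the streak and notochord, at 1261 CPM against 100 and 142 CPM in replicates 2 and 3. In both NoDox groups the library numbered 1 lay apart in several members, and values without these libraries are given beside the results they change. All 6 primed epiblast markers were detected in each library. Their sum was 555 to 619 CPM in D1Dox_d2 against 1172 to 1260 CPM in NoDox_d2, and 384 to 428 CPM in D3Dox_d4 against 401 to 738 CPM in NoDox_d4. Of the 6, 3 fell and 3 did not pass at day 2, and 4 fell and 2 did not pass at day 4. Over all genes, 13.4% fell at day 2 and 10.2% at day 4. Fgf5 averaged 33.4 CPM in D1Dox_d2 and 20.7 CPM in NoDox_d2. The largest part of the day 4 sums was Sox2, at 270 CPM on average in D3Dox_d4 and 335 CPM in NoDox_d4.

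Shh, the ligand, is a gene of chromosome 5 (28456815 to 28467256 of GRCm38, minus strand). It stood at 0.217, 0.295 and 0.438 CPM in D3Dox_d4 against 10.4, 19.8 and 19.4 CPM in NoDox_d4. The D3Dox_d4 libraries held 6, 8 and 11 counts and lay far below the lowest NoDox_d4 library. Shh fell by 5.70 on the log2 scale (SE 0.60), and the summed counts were 25 in D3Dox_d4 and 1256 in NoDox_d4. This is a 52.8-fold higher level in NoDox_d4 by counts (95% interval 35.6 to 82.0, counting error only). At day 2 the gene stood at 2.61, 1.38 and 1.91 CPM in D1Dox_d2 against 3.71, 1.42 and 0.781 CPM in NoDox_d2. These groups overlap, and the log2 fold change was −0.00 ± 0.49. It was 0.83 without the library labelled NoDox_d2 replicate 1, which did not pass, and 0.84 without both NoDox libraries numbered 1, which did, so that the day 2 direction rests on that library. Shh was higher in NoDox_d4 than in NoDox_d2 (log2 fold change 3.06 ± 0.50), and lower in D3Dox_d4 than in D1Dox_d2 (−2.63 ± 0.58). The order of the group means was thus NoDox_d4, NoDox_d2, D1Dox_d2 and D3Dox_d4, and NoDox_d2 and D1Dox_d2 do not differ beyond their spread. Of the exon bases of Shh, 15.7% are shared with 9530036O11Rik on the opposite strand, which held 0 to 9 counts per library. The other Hedgehog ligands, Ihh and Dhh, had at most 0.277 CPM in any library and were not tested.

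Ptch1, the receptor and a target gene on chromosome 13 (63508328 to 63573598, minus strand), stood at 54.8, 68.1 and 66.8 CPM in D3Dox_d4 against 219, 258 and 323 CPM in NoDox_d4. The 2 groups lie far apart, and Ptch1 fell by 2.08 on the log2 scale (SE 0.20). At day 2 it stood at 48.7, 47.6 and 53.2 CPM in D1Dox_d2 against 89.1, 58.6 and 53.3 CPM in NoDox_d2. The highest D1Dox_d2 library and the lowest NoDox_d2 library nearly touch. The log2 fold change was −0.43 ± 0.19, which did not pass, and it was −0.18 without the library labelled NoDox_d2 replicate 1. Ptch1 was higher in NoDox_d4 than in NoDox_d2 by 1.99 ± 0.20 on the log2 scale. Between D3Dox_d4 and D1Dox_d2 the log2 fold change was 0.34 ± 0.19, which did not pass. NoDox_d2 and D3Dox_d4 do not differ beyond their spread, whereas the 3 NoDox_d4 libraries stand above the other 9 libraries.

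Smo, the signal-transducing membrane protein (chromosome 6, 29735503 to 29761365, plus strand), varied least among the members. It stood at 75.0, 90.9 and 92.8 CPM in D3Dox_d4 against 128, 117 and 123 CPM in NoDox_d4, a log2 fold change of −0.51 ± 0.11 without overlap. In D1Dox_d2 it stood at 90.2, 94.3 and 95.6 CPM against 82.5, 100.5 and 97.9 CPM in NoDox_d2, and the D1Dox_d2 libraries lie inside the NoDox_d2 range (−0.00 ± 0.11). The day 4 fall kept its call in the alternatives run. The rise in NoDox_d4 over NoDox_d2 (0.39 ± 0.11) did not, for it was lost without either NoDox library numbered 1 and in most fits with 1 library fewer.

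Hhip encodes a membrane protein that binds and sequesters Hedgehog ligands and is itself a target gene (chromosome 8, 79965851 to 80058006, minus strand). It stood at 80.7, 84.0 and 93.1 CPM in D1Dox_d2 against 2.12, 1.74 and 1.82 CPM in NoDox_d2. All D1Dox_d2 libraries are high, all NoDox_d2 libraries are low, and the log2 fold change was 5.50 ± 0.27, a 45.1-fold higher level by counts (38.4 to 53.3). At day 4 it stood at 83.2, 81.6 and 101 CPM in D3Dox_d4 against 9.62, 18.1 and 20.2 CPM in NoDox_d4, again without overlap (2.47 ± 0.22, and 5.52-fold by counts, 5.20 to 5.88). The doxycycline groups do not differ beyond their spread (D3Dox_d4 over D1Dox_d2, 0.04 ± 0.21). Hhip was higher in NoDox_d4 than in NoDox_d2 (3.07 ± 0.25), and the fold change was smaller at day 4 than at day 2, with a difference of −3.03 ± 0.32 between the log2 fold changes. The sum of 10 fibroblast feeder markers, all with counts in every library, was 1712 to 2089 CPM in D1Dox_d2 against 301 to 415 CPM in NoDox_d2, and its part in the day 2 result was not tested. At day 2, 7 of the 10 markers rose, 0 fell and 3 did not pass, where 14.9% of all genes rose. The largest parts of the D1Dox_d2 sum were Col1a2 and Col1a1, which averaged 694 and 554 CPM. At day 4 that sum was 423, 471 and 500 CPM in D3Dox_d4 against 635, 140 and 140 CPM in NoDox_d4, so that NoDox_d4 replicate 1 was above and replicates 2 and 3 were below each D3Dox_d4 library. Most of the D3Dox_d4 sum was Col1a2, which averaged 343 CPM there and 44.0 CPM in NoDox_d4. Of the 10 markers, 1 rose, 3 fell and 6 did not pass at day 4, where 23.5% of all genes were called. The day 4 sum therefore does not stand for the markers as a set, and its part in the day 4 result was not tested. In bulk RNA, more or fewer cells of a type and more or less RNA per cell cannot be told apart.

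**Figure D1:**
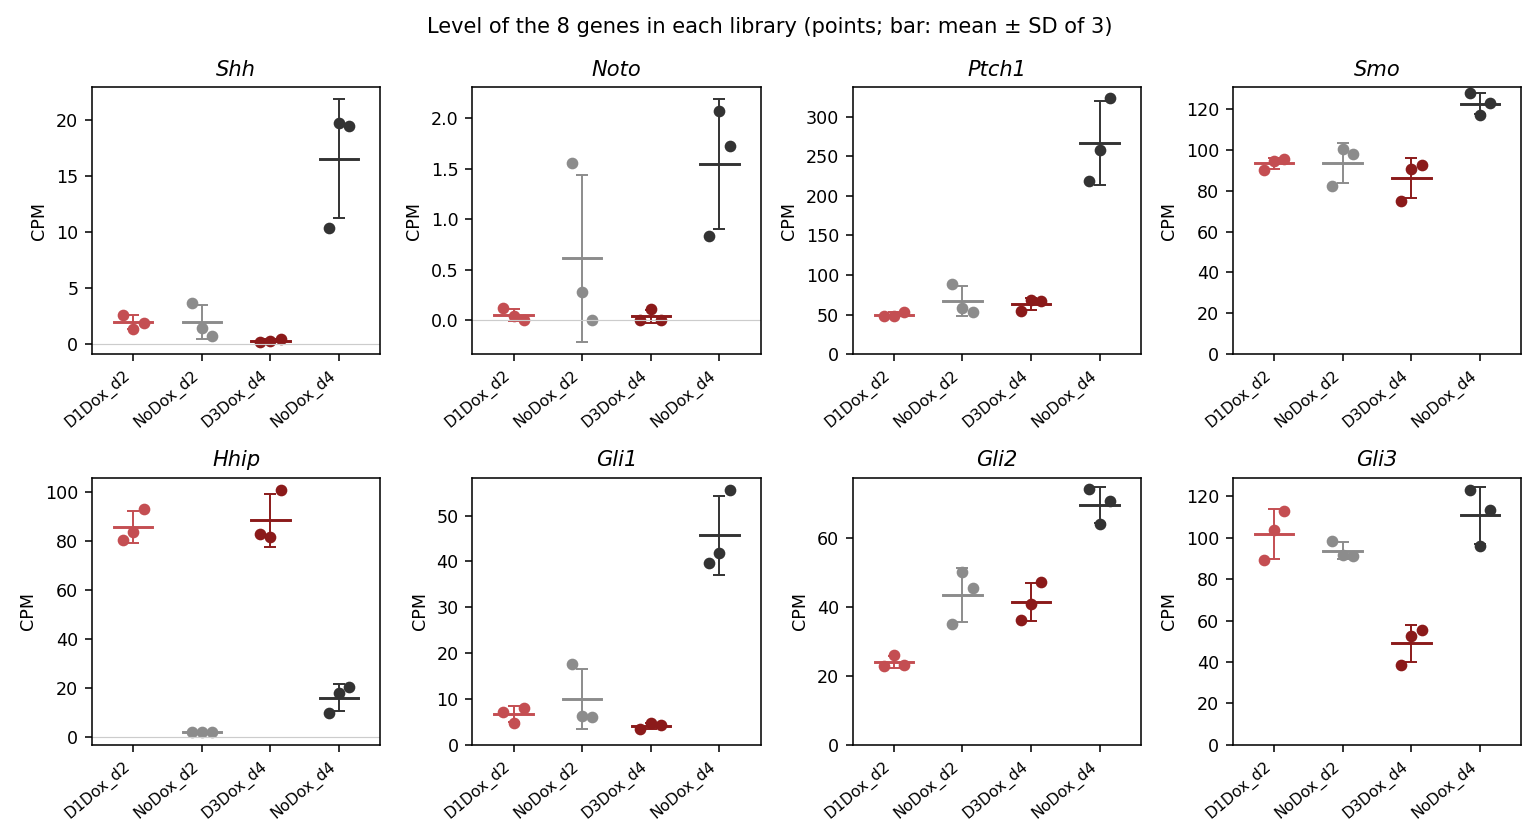
CPM of each gene (y axis, linear) in the 3 libraries of D1Dox_d2, NoDox_d2, D3Dox_d4 and NoDox_d4 (x axis). Points are libraries, in order of replicate number, horizontal bars are means and error bars are SD. Shh, Ptch1 and Gli1 are highest in the 3 NoDox_d4 libraries, whereas Hhip stands between 80.7 and 101 CPM in the 6 doxycycline libraries and at most 20.2 CPM in the others.

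The Gli genes encode the zinc-finger transcription factors at the end of the pathway, and they differed among themselves. Gli1, an activator that is itself a target (chromosome 10, 127329882 to 127341974, minus strand), stood at 3.40, 4.68 and 4.30 CPM in D3Dox_d4 against 39.6, 41.8 and 55.6 CPM in NoDox_d4. No D3Dox_d4 library comes near the NoDox_d4 range, and Gli1 fell by 3.47 on the log2 scale (SE 0.40). At day 2 it stood at 7.24, 4.68 and 8.02 CPM in D1Dox_d2 against 17.6, 6.36 and 5.99 CPM in NoDox_d2. The groups overlap, and the log2 fold change of −0.59 ± 0.37 became 0.09 without the library labelled NoDox_d2 replicate 1. Of its exon bases, 5.31% are shared with Gm47200 (0 to 4 counts per library) and 1.24% with Arhgap9 (17 to 39), both on the opposite strand. Gli1 was 2.19 ± 0.38 higher on the log2 scale in NoDox_d4 than in NoDox_d2.

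Gli2, the main activator at the start of a response (chromosome 1, 118834132 to 119053619, minus strand), was lower with doxycycline on both days. It stood at 22.8, 26.0 and 23.1 CPM in D1Dox_d2 against 35.0, 50.0 and 45.4 CPM in NoDox_d2 (−0.86 ± 0.14), and at 36.2, 40.8 and 47.2 CPM in D3Dox_d4 against 74.2, 64.0 and 70.7 CPM in NoDox_d4 (−0.75 ± 0.14). Neither pair of groups overlaps. The 2 log2 fold changes differed by 0.11 ± 0.20, which did not pass. Gli2 was higher on day 4 than on day 2 in both conditions, by 0.79 ± 0.14 for D3Dox_d4 over D1Dox_d2 and by 0.68 ± 0.14 for NoDox_d4 over NoDox_d2. The feeder marker sum given for Hhip also differed between the day 2 groups, and its part in the day 2 value of Gli2 was not tested.

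Gli3, which acts mostly as the repressor (chromosome 13, 15463235 to 15730026, plus strand), stood at 38.8, 52.6 and 55.4 CPM in D3Dox_d4 against 123, 96.0 and 113 CPM in NoDox_d4, a log2 fold change of −1.18 ± 0.15 without overlap. It stood at 89.1, 104 and 113 CPM in D1Dox_d2 against 98.7, 91.5 and 91.1 CPM in NoDox_d2, where the groups overlap (0.12 ± 0.14). The D3Dox_d4 libraries are below all 9 others. The fall of D3Dox_d4 against D1Dox_d2 was −1.06 ± 0.15 on the log2 scale, while NoDox_d4 over NoDox_d2 gave 0.24 ± 0.14, which did not pass.

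Noto (chromosome 6, 85423886 to 85428877, plus strand) was scarce in every library and passed the filter on low counts only through NoDox_d4. It had 0, 3 and 0 counts in D3Dox_d4 against 21, 51 and 45 counts in NoDox_d4, which are 0, 0.111 and 0 CPM against 0.828, 2.07 and 1.73 CPM. The D3Dox_d4 libraries are at or near the limit of detection. The level was 41.0-fold higher in NoDox_d4 by summed counts of 3 and 117 (95% interval 13.7 to 202, counting error only). The call at day 4 was lost without D3Dox_d4 replicate 1 (log2 fold change −4.64) or replicate 3 (−4.69), and the fitted log2 fold change of −5.19 ± 1.35 was −8.31 without replicate 2, which held the 3 counts. At day 2 there were 3, 1 and 0 counts in D1Dox_d2 against 44, 7 and 0 counts in NoDox_d2. Of the 51 counts in NoDox_d2, 44 were in the library labelled NoDox_d2 replicate 1, and the log2 fold change of −3.41 ± 1.36 was −1.27 without it. That change did not pass, but it passed with DESeq2 (−3.54), with no filter (−3.43) and without NoDox_d2 replicate 3 (−4.00). Noto was not called between NoDox_d4 and NoDox_d2 (1.32 ± 0.95) but was without that library (3.45).

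Of the 8 members, 1 rose and 7 fell at day 4, where 23.5% of the 18109 genes tested were called (13.4% rose and 10.2% fell). The 7 include Noto, which passed the filter only through NoDox_d4, the group where it is high, and whose call was lost without D3Dox_d4 replicate 1 or 3. The groups did not overlap in all 8 members, as in 40.6% of the genes tested. At day 2, 1 member rose (Hhip), 1 fell (Gli2) and 6 did not pass, where 28.4% of genes were called, 14.9% as risen and 13.4% as fallen. There 3 members showed no overlap, against 46.0% of genes. Of the differences between the day 4 and day 2 log2 fold changes, 6 were below 0 and called, against 12.9% of genes called, 6.66% above 0 and 6.24% below 0. They were those of Shh (−5.69 ± 0.76), Gli1 (−2.88 ± 0.53), Gli3 (−1.30 ± 0.20), Ptch1 (−1.65 ± 0.27), Hhip (−3.03 ± 0.32) and Smo (−0.51 ± 0.15). The call of Smo was lost in every fit that left out 1 library except the library labelled NoDox_d2 replicate 1. Between the NoDox groups, 6 members were called higher on day 4 and the other 2, Gli3 and Noto, did not pass, where 10.6% of genes were called, 5.09% as higher and 5.55% as lower. There 6 members showed no overlap, against 23.2% of genes. With only the NoDox libraries in the fit 2 of these calls were kept, those of Ptch1 and Hhip. Between D3Dox_d4 and D1Dox_d2, 1 member was higher (Gli2) and 2 were lower (Shh and Gli3), where 44.0% of genes were called, 22.6% as higher and 21.4% as lower, and 4 members showed no overlap, against 65.7% of genes. These comparisons share libraries, and since earlier results chose the members, nothing is read from the counts.

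**Figure D2:**
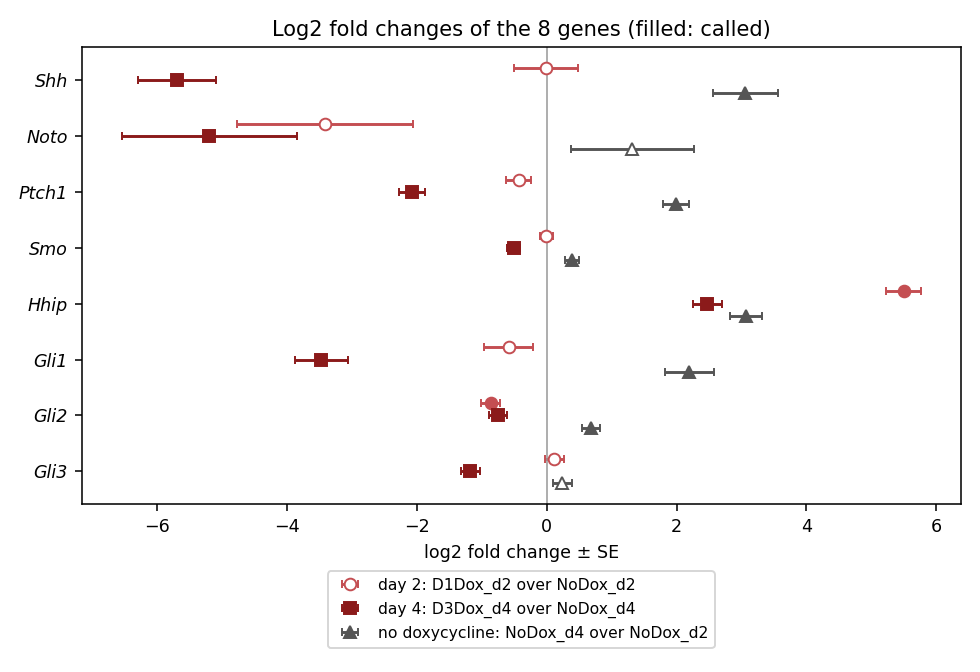
Log2 fold change (x axis) with its SE for each gene (rows) in D1Dox_d2 over NoDox_d2 (circles), D3Dox_d4 over NoDox_d4 (squares) and NoDox_d4 over NoDox_d2 (triangles). Filled symbols were called. All day 4 symbols lie left of 0 except that of Hhip at 2.47, and the day 2 symbols of Shh, Smo and Gli3 lie within 1 SE of 0.

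Levels of different genes were compared per kilobase of exon. In NoDox_d4 the mean was 21.8 CPM per kb for Smo, 18.8 for Ptch1, 11.6 for Gli3, 10.1 for Gli2, 9.14 for Gli1, 5.81 for Shh, 1.76 for Hhip and 0.964 for Noto. In D3Dox_d4 Hhip, at 9.76 CPM per kb, stood between Smo at 15.3 and Gli2 at 6.03, followed by Gli3 at 5.10, Ptch1 at 4.46, Gli1 at 0.826, Shh at 0.111 and Noto at 0.0230 CPM per kb. Hhip over Ptch1, as a ratio of CPM per kb, was 2.59, 2.76 and 2.73 in D1Dox_d2 against 0.0372, 0.0464 and 0.0534 in NoDox_d2. It was 2.37, 1.87 and 2.37 in D3Dox_d4 against 0.0686, 0.110 and 0.0975 in NoDox_d4. The ligand-binding inhibitor therefore had more transcript per kilobase than the receptor in all 6 doxycycline libraries and less in all 6 others. Gli1 over Gli3 was 0.168, 0.171 and 0.149 in D3Dox_d4 against 0.617, 0.836 and 0.941 in NoDox_d4. At day 2 it was 0.156, 0.0866 and 0.136 in D1Dox_d2 against 0.341, 0.134 and 0.126 in NoDox_d2, and those groups overlap.

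**Figure D3:**
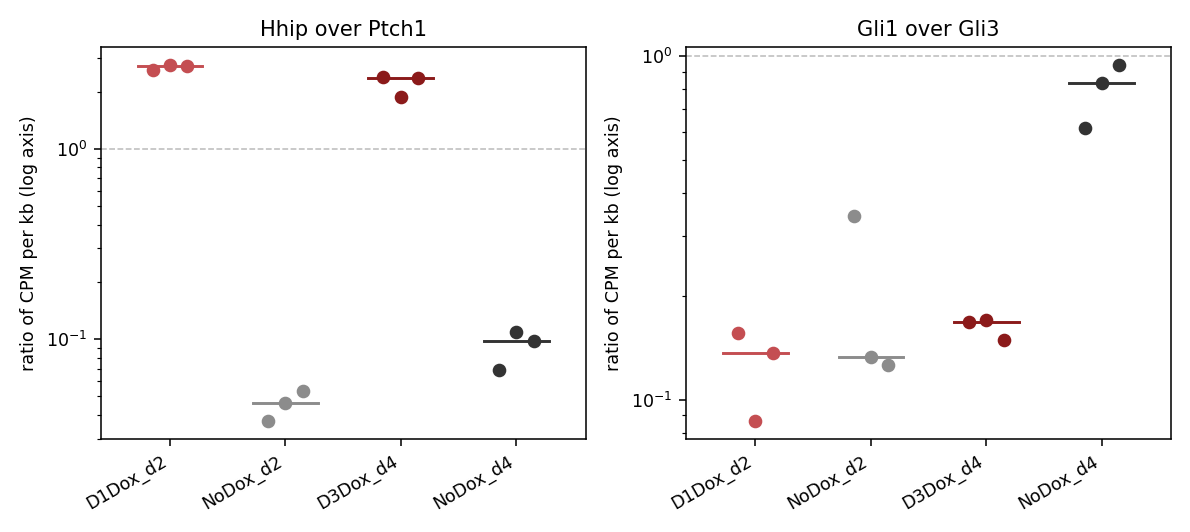
Ratio of CPM per kb (y axis, log scale) of Hhip over Ptch1 and of Gli1 over Gli3 in each library (points) of D1Dox_d2, NoDox_d2, D3Dox_d4 and NoDox_d4, with the median of each group as a bar and a dashed line at 1. Hhip over Ptch1 is above 1 in the 6 doxycycline libraries and at most 0.110 in the others, and Gli1 over Gli3 is highest in NoDox_d4.

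The other pathway genes were a list of 28, written with earlier results known, of which 26 were tested. At day 2, 2 rose, 8 fell and 16 did not pass (median log2 fold change −0.24, against −0.03 over all genes), where 14.9% of all genes rose and 13.4% fell. At day 4, 3 rose, 8 fell and 15 did not pass (median −0.04, against −0.03), where 13.4% of all genes rose and 10.2% fell. The log2 fold changes of the days differed past the threshold for 1 of the 26, Btrc. Of the 10 called at day 2, the count was 6 without D1Dox_d2 replicate 2, NoDox_d2 replicate 2 or NoDox_d2 replicate 3, and 16 without the library labelled NoDox_d2 replicate 1. Of the 11 called at day 4, the count was 7 without D3Dox_d4 replicate 2 or 3 or NoDox_d4 replicate 3. The count of differences was 10 without the library labelled NoDox_d2 replicate 1, and the call of Btrc was lost without any 1 of 8 other libraries.

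Of 4 tested genes of ligand production and release, 1 rose, 1 fell and 2 did not pass on each day. The share of all genes called was 28.4% at day 2 and 23.5% at day 4. Scube2, a secreted protein that releases lipid-modified ligand, stood at 0.795, 1.81 and 1.31 CPM in D3Dox_d4 against 14.5, 7.97 and 10.5 CPM in NoDox_d4, and all D3Dox_d4 libraries are lower. It fell by 3.07 on the log2 scale at day 4 (SE 0.34, edgeR adjusted p = 9.23e-05) and by 1.83 at day 2 (SE 0.33, adjusted p = 0.00221). Disp1, the transporter that exports ligand, averaged 51.4 CPM in D1Dox_d2 and 19.9 CPM in NoDox_d2, a rise of 1.37 ± 0.23 (edgeR adjusted p = 0.00125). At day 4 the groups overlap, and its rise of 0.76 ± 0.22 did not survive the removal of D3Dox_d4 replicate 2 (edgeR adjusted p = 0.0988), D3Dox_d4 replicate 3 (0.116), NoDox_d4 replicate 2 (0.0951) or NoDox_d4 replicate 3 (0.105).

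Of 5 receptor and co-receptor genes besides Ptch1, the same 3 fell on each day: Gas1, Lrp2 and Cdon. The share of all genes that fell was 13.4% at day 2 and 10.2% at day 4. Gas1, a membrane-anchored co-receptor that promotes signalling, stood at 15.8, 14.7 and 14.7 CPM in D1Dox_d2 against 39.0, 86.1 and 85.2 CPM in NoDox_d2. It stood at 64.5, 43.0 and 47.9 CPM in D3Dox_d4 against 157, 173 and 170 CPM in NoDox_d4, and neither pair of groups overlaps. The log2 fold changes were −2.22 ± 0.26 at day 2 (edgeR adjusted p = 0.000113) and −1.69 ± 0.25 at day 4 (0.000684). Gas1 shares 19.9% of its exon bases with Gm48488 on the opposite strand, which held 2 to 18 counts per library. Lrp2, an endocytic receptor that binds Shh, averaged 23.6 CPM in D3Dox_d4 and 99.7 CPM in NoDox_d4 (−2.08 ± 0.45, edgeR adjusted p = 0.00665). Its day 2 fall of −1.70 ± 0.45 did not survive the removal of D1Dox_d2 replicate 1 (edgeR adjusted p = 0.0529), D1Dox_d2 replicate 2 (0.0524), NoDox_d2 replicate 2 (0.0597) or NoDox_d2 replicate 3 (0.0530). Cdon, an immunoglobulin-family co-receptor, had a log2 fold change of −0.48 ± 0.16 at day 2 (edgeR adjusted p = 0.0459) and −0.54 ± 0.16 at day 4 (0.0328). Its day 2 call was lost in 8 of 12 fits with 1 library left out, those without any 1 of the D1Dox_d2 libraries, NoDox_d2 replicate 2 or 3, D3Dox_d4 replicate 2 or 3 or NoDox_d4 replicate 2 (edgeR adjusted p = 0.0542 to 0.165), and with only the libraries compared (0.0517). Its day 4 call was lost without any 1 of the D3Dox_d4 libraries or of NoDox_d4 replicates 2 and 3 (edgeR adjusted p = 0.0684 to 0.135). Boc, the partner of Cdon, was 1.87 ± 0.41 higher on the log2 scale in D3Dox_d4 than in D1Dox_d2 (edgeR adjusted p = 0.00378). It averaged 70.4 CPM in NoDox_d2 and 152 CPM in NoDox_d4, which did not pass. Against NoDox, Boc was called on neither day.

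Of 10 genes of signal transduction, 1 rose and 2 fell at day 4, and 1 rose and 1 fell at day 2. Over all genes, 23.5% were called at day 4 and 28.4% at day 2. Sufu, the inhibitor that holds Gli proteins, fell at day 4 (−0.47 ± 0.11, edgeR adjusted p = 0.0112). Btrc, the ubiquitin ligase subunit that directs Gli processing, rose at day 4 (0.62 ± 0.10, edgeR adjusted p = 0.00117). Evc fell at day 4 (−0.60 ± 0.17, edgeR adjusted p = 0.0240), a call lost in 4 of 12 fits with 1 library left out. Gpr161, a ciliary receptor that restrains the pathway, rose at day 2 (0.86 ± 0.19, edgeR adjusted p = 0.00686). Evc2 fell at day 2 (−0.73 ± 0.19, edgeR adjusted p = 0.0157), a call lost in 3 of 12 such fits. Of 7 cilium genes, 1 rose and 2 fell at day 4, and 0 rose and 3 fell at day 2. Tulp3 rose at day 4 (0.43 ± 0.11, edgeR adjusted p = 0.0130), a call lost in 2 of 12 fits with 1 library left out. Dync2h1 fell at day 4 (−0.67 ± 0.20, edgeR adjusted p = 0.0335), a call lost in 5 of 12 such fits. Ift88, an intraflagellar transport subunit, also fell at day 4 (−0.60 ± 0.14, edgeR adjusted p = 0.00785). Its day 2 fall of −0.54 ± 0.14 was lost without D1Dox_d2 replicate 2 (edgeR adjusted p = 0.0530). Ift172, another transport subunit, fell at day 2 (−0.48 ± 0.11, edgeR adjusted p = 0.00925) and had a log2 fold change of 0.02 ± 0.11 at day 4.

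**Figure D4:**
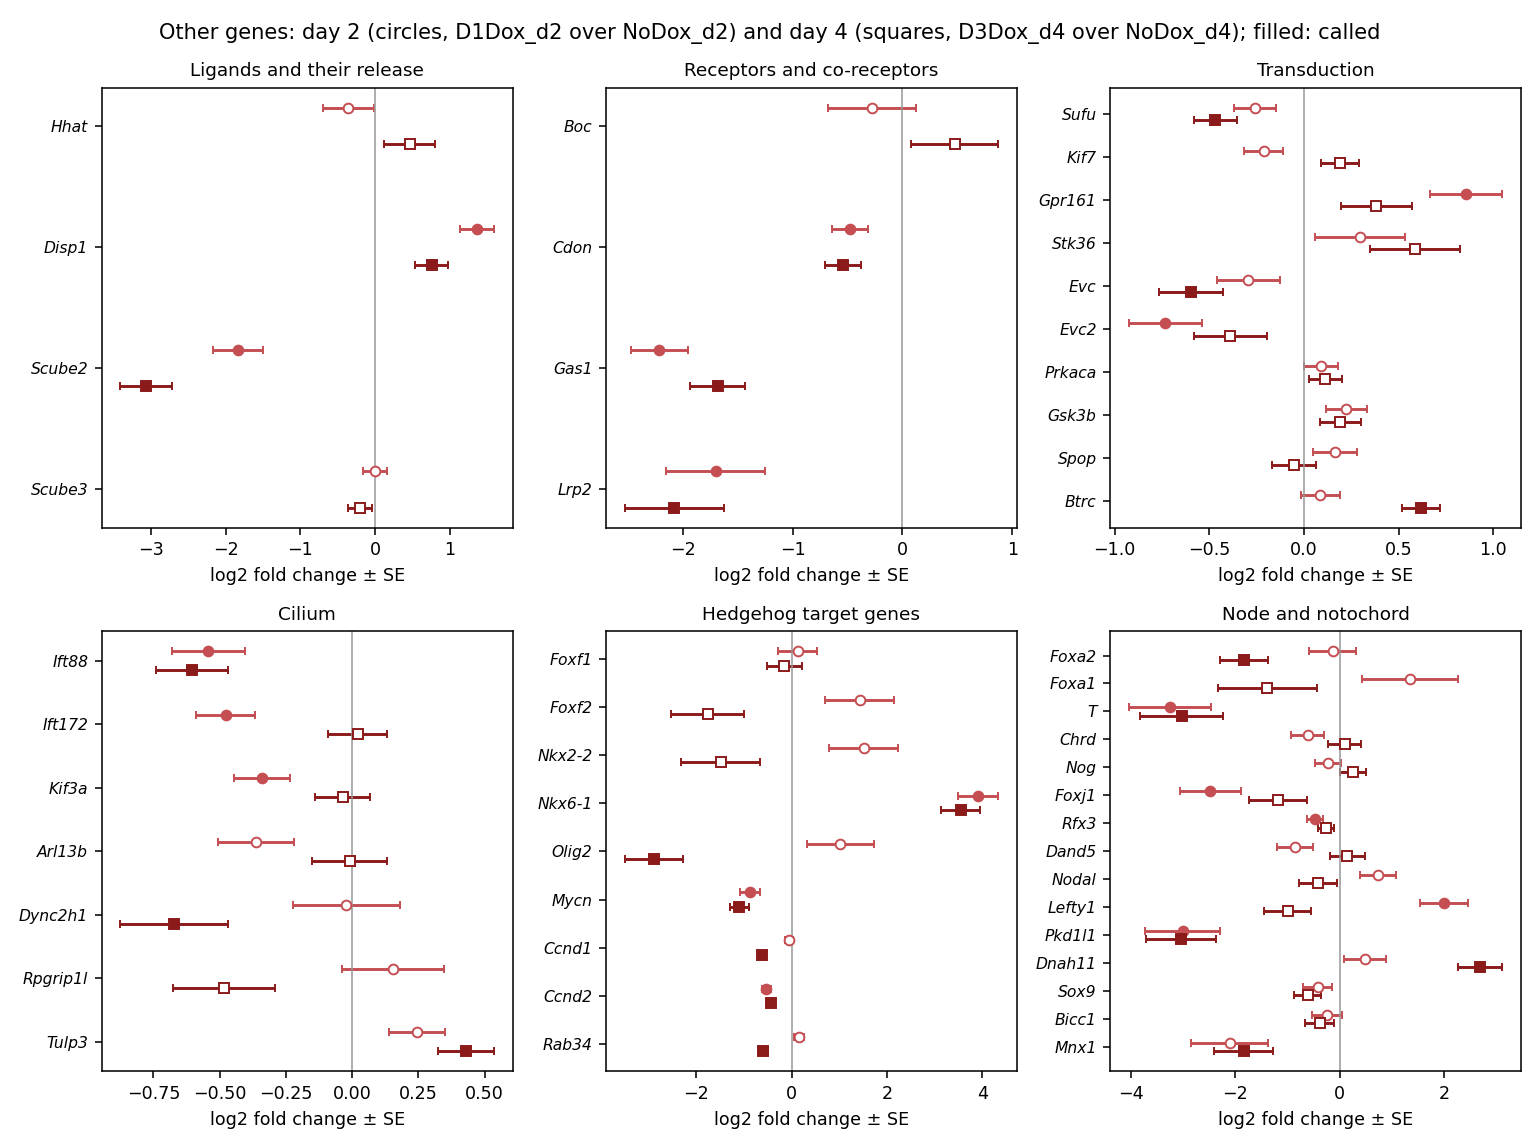
Log2 fold change (x axis) with its SE for the other genes tested, less 1 not shown (rows), by class, at day 2 (circles, D1Dox_d2 over NoDox_d2) and day 4 (squares, D3Dox_d4 over NoDox_d4). Filled symbols were called. Scube2, Gas1 and Lrp2 lie left of 0 on both days, and Nkx6-1 lies right of 0 on both, at 3.91 and 3.55.

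Of 11 genes known as Hedgehog targets in other tissues, 9 were tested. At day 4, 1 rose, 5 fell and 3 did not pass (median log2 fold change −0.63, against −0.03 over all genes, of which 23.5% were called). At day 2, 1 rose, 2 fell and 6 did not pass (median 0.15, against −0.03 over all genes, of which 28.4% were called). Ccnd1, a cyclin of the entry into the cell cycle, stood at 197, 179 and 194 CPM in D3Dox_d4 against 285, 291 and 308 CPM in NoDox_d4. It fell by 0.63 at day 4 (SE 0.08, edgeR adjusted p = 0.000303) and was 0.84 ± 0.08 higher in NoDox_d4 than in NoDox_d2 (adjusted p = 0.000217). Of its exon bases, 23.4% are shared with a gene on the opposite strand, LTO1, with 331 to 543 counts per library. Mycn, the Myc-family regulator, fell by 1.10 at day 4 (SE 0.20, edgeR adjusted p = 0.00253) and by 0.88 at day 2 (SE 0.20, adjusted p = 0.00837). Rab34, a GTPase of cilium formation, fell at day 4 (−0.60 ± 0.11, edgeR adjusted p = 0.00273). Olig2, of the motor neuron progenitor domain, stood at 0.542, 0.664 and 1.15 CPM in D3Dox_d4 against 10.9, 2.48 and 4.19 CPM in NoDox_d4 (−2.89 ± 0.61, edgeR adjusted p = 0.00552).

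Nkx6-1, a homeobox gene of the ventral neural tube and other tissues, rose. It stood at 219, 197 and 190 CPM in D1Dox_d2 against 4.10, 20.6 and 15.6 CPM in NoDox_d2 (3.91 ± 0.42, edgeR adjusted p = 6.35e-05), and at 263, 228 and 247 CPM in D3Dox_d4 against 22.9, 19.0 and 21.1 CPM in NoDox_d4 (3.55 ± 0.41, adjusted p = 0.000119). The doxycycline libraries are all far above the others, as for Hhip. Of the 5 floor plate and ventral neural tube markers, which include Nkx6-1, 4 were tested, and at day 4, 1 rose (Nkx6-1), 2 fell (Olig2 and Foxa2) and 1 did not pass (Nkx2-2). The Foxa2 call was lost without D3Dox_d4 replicate 1 or 3. At day 2 Nkx6-1 rose and the other 3 did not pass. Of all genes, 14.9% rose and 13.4% fell at day 2, and 13.4% rose and 10.2% fell at day 4. Nkx2-2 had at most 0.650 CPM in any library, and Ferd3l, which was not tested, had at most 0.332 CPM. The sum of 4 neural progenitor markers was 53.3 to 64.8 CPM in D1Dox_d2 against 119, 453 and 409 CPM in NoDox_d2, and 186 to 235 CPM in D3Dox_d4 against 199, 726 and 795 CPM in NoDox_d4. The day 4 sums overlap, for NoDox_d4 replicate 1 lay inside the D3Dox_d4 range. All 4 markers fell at day 2, whereas 1 fell and 3 did not pass at day 4. The part of the sum in the results on Shh, Gli1 and Ptch1 was not tested.

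Of 16 node and notochord genes besides Noto, 15 were tested, and 1 rose and 4 fell on each day, where 28.4% of all genes were called at day 2 and 23.5% at day 4. The 5 called at day 2 became 9 without the library labelled NoDox_d2 replicate 1 and 8 without NoDox_d4 replicate 1, and the 5 called at day 4 became 2 without D3Dox_d4 replicate 1 or 3. Gdf1, all of whose exon bases lie within Cers1 on the same strand, had 0 counts and was not tested. Pkd1l1, a channel gene of nodal cilia, stood at 0.687, 1.25 and 0.716 CPM in D3Dox_d4 against 2.84, 9.88 and 9.11 CPM in NoDox_d4 (−3.03 ± 0.67, edgeR adjusted p = 0.00723). It fell by 3.01 at day 2 (SE 0.72, edgeR adjusted p = 0.010), and by 1.87 without the library labelled NoDox_d2 replicate 1. Foxa2, a regulator of node, notochord, floor plate and endoderm, stood at 4.99, 6.97 and 5.61 CPM in D3Dox_d4 against 12.6, 28.1 and 21.6 CPM in NoDox_d4 (−1.82 ± 0.46, edgeR adjusted p = 0.0136). That call was lost without D3Dox_d4 replicate 1 (edgeR adjusted p = 0.0546) or 3 (0.0538). T stood at 7.34, 17.3 and 9.99 CPM in D3Dox_d4 against 88.8, 116 and 76.2 CPM in NoDox_d4 (−3.02 ± 0.80, edgeR adjusted p = 0.0174), a call lost without D3Dox_d4 replicate 1 (0.0704) or 3 (0.0694). Lefty1, an inhibitor of Nodal signalling, rose at day 2 (2.00 ± 0.46, edgeR adjusted p = 0.00813), and Dnah11, an axonemal dynein gene, rose at day 4 (2.69 ± 0.43, adjusted p = 0.000994). The sum of 6 gut and definitive endoderm markers, which include Foxa2, was 37.4 to 42.5 CPM in D3Dox_d4 against 67.0 to 173 CPM in NoDox_d4. Of the 6, 3 fell and 3 did not pass at day 4, where 10.2% of all genes fell. Cdx2 averaged 19.3 CPM in D3Dox_d4 and 57.2 CPM in NoDox_d4, and Sox17 averaged 0.756 and 0.819 CPM. The part of the sum in the result on Shh was not tested, and it is not separate from the result on Foxa2. The 4 visceral endoderm markers summed to at most 2.84 CPM in any library.

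The genes whose log2 CPM ran closest to each member's were found among 15733 genes by Pearson's r over the 12 libraries. These points share library and depth and form 4 groups, so that r describes mainly the group levels. For Shh they were Nkx2-9, a homeobox gene of the ventral neural tube (r = 0.961), Gm38103 (0.958) and Gli1 (0.953). Gli1 ran closest to Shh and next to Ptch1 (0.936), and Ptch1 to Ccnd1 (0.958). Hhip followed another course, closest to the adhesion gene Kirrel3 (0.991) and to Lrrn3 (0.986), and its r with Shh was −0.29. Gli2 ran closest to Nsd2 (0.980). Gli3 ran closest to Ints2 (0.978), with the proliferation genes Cenpf (0.970) and Mki67 (0.969) also among its nearest 5. Smo ran closest to Atad5 (0.945). Noto ran closest to Zfp65 (0.918) and Pkd1l1 (0.915).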

How the data were processed

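Raw fragment counts per gene in 12 libraries were used as the authors deposited them. Per the file headers they were made with featureCounts 2.0.1 on the GENCODE vM25 annotation, counting read pairs with both ends mapped and with no strand option, so that reads of overlapping genes on opposite strands cannot be told apart. Per the submitters' processing notes the reads were aligned with STAR to GRCm38 (mm10). Ensembl identifiers were matched to symbols for 55141 of 55487 genes.

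The counts were tested with edgeR 4.0.16 (R 4.3.3): TMM normalisation, filterByExpr, 1 mean per group over all 12 libraries (8 residual degrees of freedom) and the quasi-likelihood F-test, with Benjamini-Hochberg adjustment over the 18109 genes that passed the filter and a threshold of 0.05. Each SE was derived from the log2 fold change and its F statistic (absolute value over √F). All 8 members passed the filter, Noto only through NoDox_d4. CPM uses TMM-scaled library sizes, and CPM per kb divides by the exon length in the file. Ratios of summed counts have exact 95% intervals that cover counting error only. The procedure was tested on simulated data. Alternatives were DESeq2 1.42.0, its size factors, no filter, scaling by upper quartiles, a filter of 1 CPM in 3 libraries, only the libraries compared, a replicate block, a threshold of 0.01, each library left out in turn, and both NoDox libraries numbered 1 left out. The replicate block on the NoDox libraries alone was added after the data had been seen.

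The members and the gene lists were chosen with earlier results of these data known. Outside the members, genes could be named if they were Mixl1, T, among the up to 4 called genes of lowest adjusted p in each list and comparison, or among the 5 genes closest to each member by r. Not every gene that met this rule is named, so a gene left out may also have been called. Genes named beyond these were chosen after their values were seen. The values of 1 listed gene are not reported here. Samples of NoDox_d4 and NoDox_d2 with the same number deviated together from their group means (r = 0.545, 0.361 and 0.308 over genes). All 3 passed the 0.1 set for pairing, but numbers 2 and 3 did not separate: NoDox_d4 replicate 3 with NoDox_d2 replicate 2 gave 0.416 and NoDox_d4 replicate 2 with NoDox_d2 replicate 3 gave 0.325. The labels do not say that a number marks a shared culture. In the other comparisons r ranged from −0.125 to 0.241 and not every pair passed 0.1.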

Additional observations from a re-analysis of the deposited data

Results flagged for a closer look

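The doxycycline effect at day 4 (D3Dox_d4 over NoDox_d4) differed from that at day 2 (D1Dox_d2 over NoDox_d2) by an interaction test across all genes for 6 members. Since the members were chosen with their day 4 falls known, these 6 differences are a description and the test supports nothing for them. The values below are the day 4 log2 fold change minus the day 2 one. It was −5.69 for Shh, −2.88 for Gli1, −1.30 for Gli3, −1.65 for Ptch1, −3.03 for Hhip and −0.505 for Smo, whose call was lost in 11 of 12 fits with 1 library left out. For Hhip the effect was above 0 on both days and smaller at day 4, whereas for the other 5 the day 4 effect was below 0 and the day 2 effect did not pass.

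The same test passed for 6 genes of the lists of other pathway genes, target genes, and node and notochord genes. The difference was 0.531 for Btrc, −0.576 for Ccnd1, 2.21 for Dnah11, −3.0 for Lefty1, −3.91 for Olig2 and −0.753 for Rab34. Among the marker lists, it passed for 6 of 10 fibroblast feeder markers, all below 0, and for 2 of 4 neural progenitor markers, above 0. Of 6 primed epiblast markers, 1 passed above 0 and 1 below 0, where 12.9% of all genes were called. With 1 library left out, the call of Btrc was lost in 8 of 12 fits (edgeR adjusted p up to 0.0782), that of Dnah11 in 7 (up to 0.0720) and that of Olig2 in 3 (up to 0.0561). The fits that lost Dnah11 left out any 1 of the D1Dox_d2 libraries, D3Dox_d4 replicate 2 or 3, or NoDox_d4 replicate 2 or 3, and those that lost Olig2 left out D1Dox_d2, D3Dox_d4 or NoDox_d2 replicate 2. The groups hold 3 libraries each, too few for a test of single libraries that stand apart.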

How the results depend on the processing

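At day 4, Shh, Gli1, Gli2, Gli3, Ptch1, Smo and Hhip kept their direction and call in every alternative run, as did Gli2 and Hhip at day 2. With both NoDox libraries numbered 1 left out, Shh at day 2 turned to 0.84 and Foxa2 at day 2 to 0.75, and the difference of T turned to −1.86 (from −1.81, without the library labelled NoDox_d2 replicate 1, to 0.71 with single libraries left out). In that fit the genes called numbered 9902 at day 2, 7168 at day 4, 6424 for the difference and 4534 for NoDox_d4 over NoDox_d2. The other Hedgehog genes called there numbered 20, 18, 11 and 8, and 14 for D3Dox_d4 over D1Dox_d2, where 5 members were called. At a threshold of 0.01 the genes called numbered 2464, 2196, 691, 775 and 4755 in the same order of comparisons, and the other Hedgehog genes 5, 5, 0, 2 and 4. Fitting only the libraries compared called 206 genes, 2 members and 0 other Hedgehog genes for NoDox_d4 over NoDox_d2, and 5 members for D3Dox_d4 over D1Dox_d2. Of the other Hedgehog genes, 0 were called for the difference with no filter and 3 with DESeq2. By edgeR, unadjusted p was under 0.05 for 7 of them with no filter, for 6 of them beside the 0 at a threshold of 0.01, and for 4 of them beside the 0 for NoDox_d4 over NoDox_d2. DESeq2 gave no adjusted p for Mixl1, the stricter filter removed Foxf2 and Nkx2-2, and a fit of only the libraries compared gave no value for Noto at day 2 or for any difference. The causes of these shifts were not tested.

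With each library left out in turn, the genes called ranged from 3048 to 7438 at day 2, 2756 to 5554 at day 4, 1226 to 5037 for the difference, 1064 to 3208 for NoDox_d4 over NoDox_d2 and 5976 to 9425 for D3Dox_d4 over D1Dox_d2. Members called ranged from 2 to 3, 7 to 8, 5 to 6, 5 to 6 and 3 to 4, and other Hedgehog genes from 6 to 16, 7 to 15, 0 to 10, 3 to 8 and 5 to 10, in the same order.

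A replicate block over all 12 libraries called 2 other Hedgehog genes for the difference and changed no member's call. In a fit of the NoDox libraries alone, where same-numbered libraries met the rule for pairs though numbers 2 and 3 also went together when crossed, the replicate block called 5 of the members, and Smo was lost (0.38). At few counts, as for Noto, depth limits what can be shown.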
